A study of Mus musculus with 96 samples.

Results

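The genes described here are 44 genes of the cell cycle and DNA replication, taken as every line of the count tables whose gene symbol is on a list of replication, mitosis and proliferation genes, and all 44 were found among the 32594 genes listed. They were followed in bulk RNA-seq of 3 regions on the side of the impact (hippocampus, thalamus, hypothalamus) of male C57BL/6 mice, 8 to 10 weeks old, taken 3 or 29 days after injury (dpi, days post-injury). Each region and time point had 4 groups of 4 libraries. Sham + VH mice had a sham procedure and vehicle, TBI + VH mice a controlled cortical impact (a piston strike on the exposed cortex) and vehicle, and Sham + CD and TBI + CD mice the same procedures with candesartan, a blocker of the angiotensin AT1 receptor, at 0.1 mg/kg. Vehicle or drug was injected at 6, 24 and 48 h in the 3 dpi mice, and at 6 h followed by an osmotic pump placed at 24 h in the 29 dpi mice. All groups had anesthesia and scalp surgery, and because sham mice had no craniectomy, TBI against sham takes in the opening of the skull as well as the impact. The labels give each library its own replicate number within a group and do not say which regions came from the same mouse, so p-values measure the spread between these libraries.

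A cell copies its DNA once per division, in S phase, and separates the copies in mitosis. The MCM helicase opens the double helix, PCNA holds the polymerases on it, and ribonucleotide reductase and thymidylate synthase supply the nucleotides. Mitosis is then driven by CDK1 with its cyclins, by the Polo and Aurora kinases and by a spindle of microtubules, and it ends when the anaphase-promoting complex (APC) marks cyclin B for destruction. In the adult brain few cells divide, among them the progenitors of the dentate gyrus in the hippocampus and the precursors of oligodendrocytes, while microglia and other cells can re-enter the cycle after an injury. The 44 genes were sorted by role into 18 genes of DNA synthesis, 24 of mitosis and the proliferation markers Mki67 and Top2a, which are made through several phases.

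Many of these genes are known to be switched on in G2 and mitosis through a CHR element (TTTGAA or TTCGAA) beside CCAAT boxes, and many S-phase genes through E2F sites (here GCGGGAA). RefSeq promoters on GRCm38.p6, read as the 250 bases before the first listed start, were matched for 38 of the 44 genes; Kif20a, Aurkb, Mcm4, Ccna2, Tpx2 and Ccne2 were not matched. The promoters of Mki67, Top2a, Cdk1, Pcna and Mcm2 are shown because these genes are followed throughout, and that of Ube2c because it had the largest change. Ccnb1, whose change was the next largest, is matched but not shown, and its window had 0 CHR and 2 CCAAT matches. Each runs 5′ to 3′ along the gene's strand, with every CHR and CCAAT match on either strand in capitals.
Mki67, chr7:135716380-135716629, minus strand: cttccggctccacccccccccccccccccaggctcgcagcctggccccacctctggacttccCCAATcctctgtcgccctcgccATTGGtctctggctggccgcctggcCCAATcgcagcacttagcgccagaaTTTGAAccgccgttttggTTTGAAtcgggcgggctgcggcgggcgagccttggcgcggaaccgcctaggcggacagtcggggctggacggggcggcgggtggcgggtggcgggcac
Top2a, chr11:99024190-99024439, minus strand: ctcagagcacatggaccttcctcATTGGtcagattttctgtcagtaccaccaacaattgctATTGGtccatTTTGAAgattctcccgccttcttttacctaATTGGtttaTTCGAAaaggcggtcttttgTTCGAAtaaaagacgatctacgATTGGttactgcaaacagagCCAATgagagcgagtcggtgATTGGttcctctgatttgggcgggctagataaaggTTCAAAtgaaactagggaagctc
Cdk1, chr10:69352913-69353162, minus strand: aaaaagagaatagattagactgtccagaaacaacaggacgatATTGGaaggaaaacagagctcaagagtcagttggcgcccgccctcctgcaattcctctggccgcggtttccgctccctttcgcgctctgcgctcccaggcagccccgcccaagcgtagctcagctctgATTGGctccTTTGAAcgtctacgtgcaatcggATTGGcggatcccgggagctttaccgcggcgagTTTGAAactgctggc
Ube2c, chr2:164769679-164769928, plus strand: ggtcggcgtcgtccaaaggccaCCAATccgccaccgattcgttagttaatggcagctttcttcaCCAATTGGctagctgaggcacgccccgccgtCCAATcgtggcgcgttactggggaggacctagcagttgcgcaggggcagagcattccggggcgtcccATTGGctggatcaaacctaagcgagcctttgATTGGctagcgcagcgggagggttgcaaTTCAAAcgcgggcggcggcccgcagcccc
Pcna, chr2:132253181-132253430, minus strand: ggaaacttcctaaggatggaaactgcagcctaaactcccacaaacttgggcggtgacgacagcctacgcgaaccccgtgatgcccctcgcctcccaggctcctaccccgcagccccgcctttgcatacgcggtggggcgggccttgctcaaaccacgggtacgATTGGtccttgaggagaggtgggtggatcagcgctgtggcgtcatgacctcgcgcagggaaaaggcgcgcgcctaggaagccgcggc
Mcm2, chr6:88898781-88899030, minus strand: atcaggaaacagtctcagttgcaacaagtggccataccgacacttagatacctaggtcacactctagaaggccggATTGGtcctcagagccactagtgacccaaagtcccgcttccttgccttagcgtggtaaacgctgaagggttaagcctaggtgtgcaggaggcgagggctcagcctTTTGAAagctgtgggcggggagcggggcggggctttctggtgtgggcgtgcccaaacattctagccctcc
The CHR letters occurred 2 times before Mki67, 4 times before Top2a, 2 times before Cdk1, 1 time before Ube2c, 1 time before Mcm2 and 0 times before Pcna. CCAAT occurred 3 times before Mki67, 6 times before Top2a, 3 times before Cdk1, 6 times before Ube2c (with 1 overlapping pair) and 1 time before each of Pcna and Mcm2. The E2F letters occurred in none of these 6 windows, and other spellings of an E2F site were not searched.

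Across the matched genes, CCAAT stood in 31 of 38 promoters (81.6%), against 34.5% of the 27025 promoters of this length in the table. CHR letters were in 13 (34.2%), against 17.4% of all promoters, and CHR with CCAAT in 12 (31.6%), against 6.21%. CCAAT was in 12 of the 16 matched DNA synthesis genes (75.0%) and 17 of the 20 matched mitotic genes (85.0%), and CHR letters in 4 (25.0%) and 7 (35.0%). The E2F letters were in 6 of the 16 matched DNA synthesis genes (37.5%: Hells, Mcm7, Pola1, Prim1, Rrm1 and Uhrf1) and in 0 of the 20 matched mitotic genes, against 3.84% of all promoters. At least 2 CCAAT matches were in 11 of the 20 mitotic genes (55.0%) and 5 of the 16 DNA synthesis genes (31.2%), against 10.5% of all promoters. No difference between the roles was tested. These are counts of letters in a fixed window, on both strands, and not of bound sites.

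The libraries held 6663629 to 38589791 counts, with 17150610 to 31253784 at 3 dpi and a median over all 96 of 24708356. A gene counted as called when its log2 fold change was past 0.32 in size and its false discovery rate (FDR) was below 0.05, by the quasi-likelihood F test of edgeR, Benjamini-Hochberg adjusted across every gene tested. Levels are given as CPM, counts scaled to a common library total with TMM factors. In the hippocampus at 3 dpi, 4 libraries stood apart by RNA of the choroid plexus, an epithelium in the ventricles beside the hippocampus. The 10 marker genes of that epithelium summed to 6672, 4335 and 4630 CPM in Sham + VH 1, 2 and 4 and to 2688 CPM in TBI + CD 1, against 22.1 to 205 CPM in the other 12 libraries. The counts of called genes among the 44 are given with and without them in the comparisons that use the hippocampus at 3 dpi, whereas their part in the per-kilobase levels was not tested. Other sets spread widely too. The same marker genes summed to 46.1 to 7485 CPM in the hippocampus at 29 dpi. In the thalamus they summed to 24.8 to 3460 CPM at 3 dpi and 25.6 to 3912 CPM at 29 dpi. No libraries were left out of those sets for their choroid plexus RNA.

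In the injured hippocampus at 3 dpi the cell cycle genes rose together. With the 8 TBI libraries set against the 8 sham libraries of both drug arms, 40 of the 44 genes were called higher and 0 lower, where 13.3% of the 16756 genes tested were called higher and 2.47% lower. The median log2 fold change of the 44 genes was 1.81 (3.51-fold), against -0.02 over all genes tested, and all 44 had a value above 0. Of the 44 genes, 5 (Ccnb1, Bub1, Melk, Aurkb and Ube2c) passed the filter on low counts only through the injured groups, and of the other 39 genes 35 were called. For 26 of the 44 genes the lowest TBI library lay above the highest sham library, which held for 8.15% of all genes tested. In whole tissue, more dividing cells and more of these RNAs per cell cannot be told apart.

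**Figure D1:**
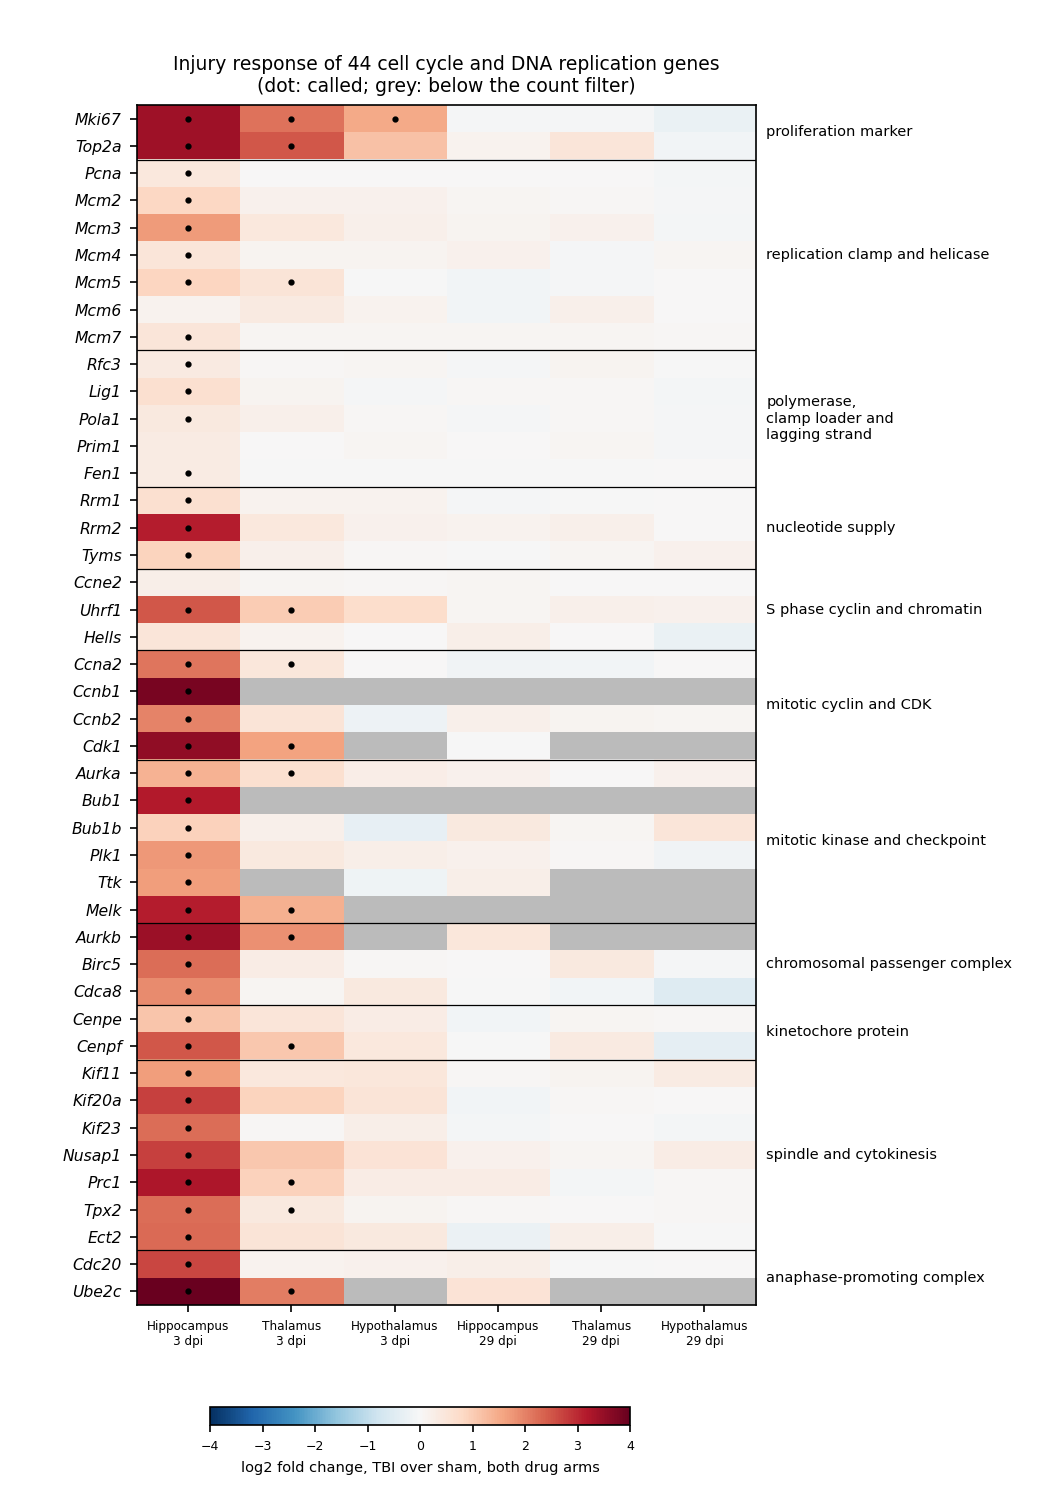
Log2 fold change of each of the 44 genes, TBI against sham over both drug arms, for each region at 3 dpi and at 29 dpi, with genes grouped by role; a dot marks a called gene and grey a gene below the filter on low counts. The hippocampus at 3 dpi holds 40 called genes, the thalamus 13 and the hypothalamus 1, and the columns at 29 dpi hold 0.

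Mki67, whose protein coats mitotic chromosomes, stood at 1.28, 1.58, 1.76 and 2.05 CPM in the Sham + VH hippocampus and at 1.96, 2.25, 2.23 and 2.47 CPM in Sham + CD. After injury it stood at 24.7, 5.74, 29.7 and 17.6 CPM in TBI + VH and at 10.02, 11.0, 38.6 and 26.0 CPM in TBI + CD. Every injured library lay above every sham library, although the injured libraries spread widely among themselves. Top2a, the topoisomerase that untangles replicated chromosomes, had 1.52, 1.58, 2.30 and 1.4998 CPM in Sham + VH and 1.78, 1.80, 2.33 and 2.68 CPM in Sham + CD, against 25.2, 6.19, 32.8 and 15.4 CPM in TBI + VH and 8.95, 11.4, 35.6 and 26.3 CPM in TBI + CD. It too had no overlap between injured and sham libraries. Over both arms Mki67 rose from 1.95 ± 0.391 to 20.4 ± 11.2 CPM (SD, n = 8 each), which is 3.40 on the log2 scale (SE 0.34, FDR 5.88e-07), and Top2a from 1.94 ± 0.444 to 20.2 ± 11.2 CPM, also 3.40 (SE 0.35, FDR 7.58e-07).

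Among the mitotic genes all 24 were called, with a median log2 fold change of 2.26 and a range of 0.93 to 3.95. Of these, Ccnb1, Bub1, Melk, Aurkb and Ube2c passed the filter on low counts only through the injured groups. The other mitotic genes, which reach it in sham tissue, ranged from 0.93 to 3.55. Cdk1, the kinase that starts mitosis, stood at 0.479, 0.665, 0.738 and 0.512 CPM in Sham + VH, at 0.411, 0.321, 0.347 and 0.511 CPM in Sham + CD, at 8.12, 1.36, 7.91 and 5.01 CPM in TBI + VH and at 3.08, 2.84, 9.87 and 7.69 CPM in TBI + CD. The lowest injured library, TBI + VH 2, was still above the highest sham library. The log2 fold change of Cdk1 was 3.55 (SE 0.38, FDR 1.06e-06). Its partners rose with it: Ccnb1 (cyclin B1) by 3.78 (SE 0.46, FDR 5.77e-06), Ccna2 (cyclin A2, which acts in S phase and G2) by 2.14 (SE 0.27) and Ccnb2 by 1.98 (SE 0.24). Ccnb1 was near the limit of detection in sham tissue, with 0.0399, 0.0832, 0.410 and 0.256 CPM in Sham + VH and 0.137, 0, 0.0496 and 0.341 CPM in Sham + CD, and it had 2.58, 0.654, 3.79 and 2.58 CPM in TBI + VH and 1.49, 1.18, 3.14 and 2.80 CPM in TBI + CD. All 4 genes of this role were called, with a median of 2.85.

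The APC genes held the largest change of the list. Ube2c, the enzyme that loads ubiquitin for the APC, had 0.0798, 0.416, 0.164 and 0.658 CPM in Sham + VH and 0.182, 0.321, 0.248 and 0.298 CPM in Sham + CD, against 6.45, 1.21, 6.5006 and 3.39 CPM in TBI + VH and 2.52, 2.68, 8.04 and 6.53 CPM in TBI + CD. No injured library overlapped a sham library. The log2 fold change was 3.95 (SE 0.42, FDR 1.28e-06), and that of Cdc20, which activates the APC, was 2.67 (SE 0.28). In the chromosomal passenger complex, which corrects faulty spindle attachments, all 3 genes rose: its kinase Aurkb by 3.43 (SE 0.36, FDR 9.38e-07), Birc5 (survivin) by 2.22 and Cdca8 (borealin) by 1.89.

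All 7 genes of the spindle and of cytokinesis were called, with a median of 2.27. They were led by Prc1, which bundles the microtubules of the central spindle, at 3.24 (SE 0.36; 1.11 ± 0.166 CPM in sham and 10.5 ± 5.67 CPM in TBI, n = 8 each), Nusap1, a spindle protein, at 2.75 and the motor Kif20a at 2.72. Ect2, which places the cleavage furrow, rose by 2.27, the central spindle motor Kif23 by 2.25, Tpx2, an activator of Aurora A, by 2.22 and Kif11, the motor that pushes the spindle poles apart, by 1.66. Of the mitotic kinases and checkpoint genes all 6 were called (median 1.70), from the checkpoint kinase Bub1 at 3.17 (SE 0.43) and Melk at 3.14 (SE 0.42) through Plk1 at 1.74, Ttk at 1.67 and Aurka at 1.41 to Bub1b at 0.93 (SE 0.23). The kinetochore genes Cenpf and Cenpe rose by 2.49 and 1.12. Bub1b had 3.46 ± 0.834 CPM in sham and 6.55 ± 2.58 CPM after injury, and Cenpe 2.94 ± 0.557 and 6.35 ± 2.06 CPM (n = 8 each).

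The genes of DNA synthesis changed less. Of the 18, 14 were called, with a median log2 fold change of 0.48 and a range of 0.14 to 3.13. Pcna, the sliding clamp, stood at 17.6, 17.6, 20.7 and 17.4 CPM in Sham + VH, 15.5, 18.5, 17.4 and 19.2 CPM in Sham + CD, 25.1, 20.7, 24.1 and 23.6 CPM in TBI + VH and 22.2, 20.2, 29.2 and 27.4 CPM in TBI + CD. Its groups touched, since TBI + CD 2 and TBI + VH 2 were no higher than Sham + VH 3. The log2 fold change of Pcna was 0.42 (SE 0.08, FDR 3.40e-04). Mcm2, a helicase subunit, had 4.55, 5.99, 6.11 and 6.26 CPM in Sham + VH, 5.70, 6.38, 6.74 and 5.20 CPM in Sham + CD, 11.0, 7.35, 11.4 and 8.88 CPM in TBI + VH and 8.20, 7.38, 18.8 and 10.7 CPM in TBI + CD. For Mcm2 the injured libraries were all above the sham libraries, with a log2 fold change of 0.84 (SE 0.17, FDR 7.74e-04).

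The 6 subunits of the MCM helicase act as 1 ring but their RNAs did not move alike. Mcm3 rose most, by 1.71 (SE 0.22, FDR 1.13e-05), from 3.16 ± 0.443 to 10.3 ± 4.52 CPM. Mcm5 rose by 0.85, Mcm4 by 0.48 and Mcm7 by 0.48. Mcm6 was not called: its 0.14 (SE 0.12, FDR 0.392) came from 18.5 ± 2.69 CPM in sham and 20.4 ± 4.36 CPM in TBI, with libraries of both kinds interleaved between 14.6 and 28.7 CPM. In the polymerase and lagging-strand class, Lig1 (DNA ligase 1) rose by 0.64, Pola1 (the polymerase that starts new strands) by 0.39, Rfc3 (clamp loader) by 0.37 and Fen1 (flap endonuclease) by 0.32, the last just past the threshold on fold change (FDR 0.00683). Prim1, the primase, lay just short of that threshold, at 0.316 (SE 0.12, FDR 0.0469).

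The subunits of ribonucleotide reductase, which makes deoxyribonucleotides, also moved to different degrees. Rrm2, the subunit whose amount follows S phase, rose by 3.13 (SE 0.37, FDR 3.80e-06), from 1.32 ± 0.209 to 11.6 ± 6.89 CPM. Rrm1, the subunit present through the cycle, rose by 0.64 from 17.0 ± 1.46 to 26.4 ± 6.96 CPM, and Tyms (thymidylate synthase) by 0.89. Of the S-phase cyclin and chromatin genes only Uhrf1, which keeps DNA methylation through replication, was called, at 2.50 (SE 0.32, FDR 1.09e-05). Hells, a chromatin remodeler, had 0.47 (SE 0.21, FDR 0.0906) and Ccne2 (cyclin E2) 0.24 (SE 0.16, FDR 0.239).

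**Figure D2:**
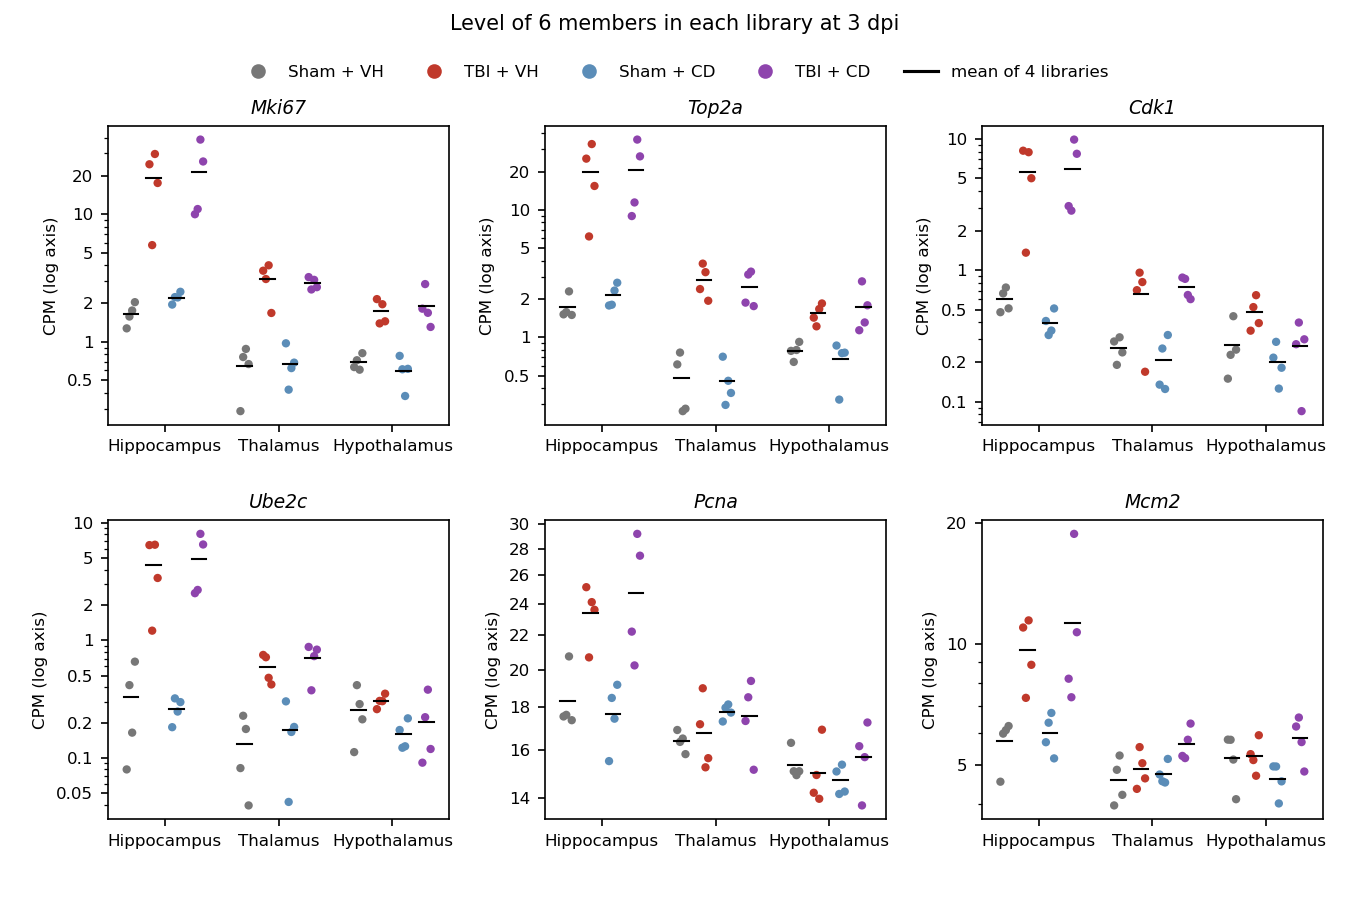
CPM of Mki67, Top2a, Cdk1, Ube2c, Pcna and Mcm2 in every library at 3 dpi by region and group, on a log axis, with a bar at the mean of the 4 libraries. In the hippocampus every TBI library lies above every sham library for Mki67, Top2a, Cdk1, Ube2c and Mcm2, while the Pcna values touch.

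The mitotic genes were the scarcer ones before injury. Per kilobase of exon (GENCODE vM21), the scale on which levels of different genes can be compared, the DNA synthesis genes had a median of 2.08 CPM per kb in the sham hippocampus (0.302 to 11.9) and the mitotic genes 0.244 CPM per kb (0.0643 to 0.942). After injury the medians were 3.58 and 1.34 CPM per kb. Pcna went from 11.9 to 15.9 CPM per kb and Mcm6 from 4.24 to 4.66, while Mki67 went from 0.194 to 2.03, Top2a from 0.371 to 3.88, Cdk1 from 0.112 to 1.28, Ube2c from 0.114 to 1.79 and Rrm2 from 0.603 to 5.28. The level on the one scale and the fold change on the other share the sham libraries, so their relation is a description and carries no test.

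**Figure D3:**
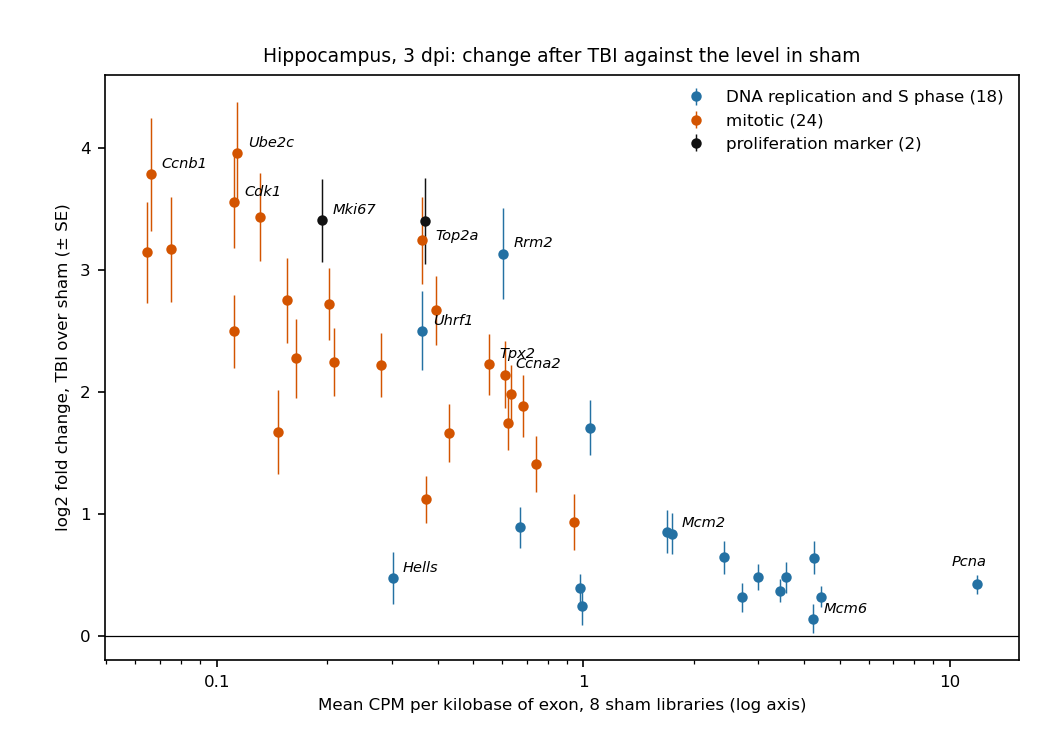
Sham level (CPM per kb of exon, log axis, 8 sham libraries) against the log2 fold change with its SE for each of the 44 genes in the hippocampus at 3 dpi, by role. Mitotic genes lie at the left, below 1 CPM per kb, with log2 fold changes of 0.93 to 3.95, and DNA synthesis genes reach 11.9 CPM per kb with changes from 0.14.

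Each drug arm was also set against Sham + VH alone. In TBI + VH 32 genes were called higher (8.99% of all genes tested), 27 of them among the 39 that reach the filter in sham tissue, and 29 had groups of 4 without overlap (11.6% of all genes). The median was 1.76, with 22 of 24 mitotic and 8 of 18 DNA synthesis genes called. In TBI + CD 37 genes were called (10.3%), 32 of the 39, with 33 not overlapping (13%), a median of 1.88, and 24 mitotic and 11 DNA synthesis genes. All 32 genes called in TBI + VH were called in TBI + CD, and Mcm4, Rfc3, Lig1, Bub1b and Ttk were called only in the second. Both contrasts share the Sham + VH libraries, and these calls are not a test of a difference between the arms.

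With the choroid-rich libraries taken out the injury response over both arms held and the single arms thinned. Without those 4 libraries 36 genes were called over both arms (median 1.82, 44 of 44 above 0; 12.4% of all genes were called higher), against 4 in TBI + VH (median 1.56; 2.95%) and 11 in TBI + CD (median 1.82; 4.57%). All 24 mitotic genes and both markers remained called over both arms, whereas of the DNA synthesis genes Mcm7, Rfc3, Pola1 and Fen1 were called no longer, with log2 fold changes of 0.32 to 0.46 and FDR of 0.0778 to 0.127. That setting leaves 1 Sham + VH library, which is assumed to vary like the others. A score of choroid plexus content as a covariate gave 36, 3 and 18 calls with medians of 1.54, 1.05 and 1.29, where 12.4%, 3.62% and 6.68% of all genes were called higher. Within the candesartan arm alone, whose sham libraries were low in choroid RNA, 38 genes were called with a median of 1.91 (14.4% of all genes), and without the 4 libraries, of which TBI + CD 1 is in that arm, 39 with a median of 2.09 (13.9%).

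The injured libraries varied together across the list. Of the 8 injured hippocampal libraries TBI + VH 2 was the lowest for 35 of the 44 genes and TBI + CD 3 the highest for 34. The 44 genes summed to 154 to 177 CPM (median 163) in the 8 sham libraries, and to 435, 202, 477 and 323 CPM in TBI + VH and 250, 254, 562 and 430 CPM in TBI + CD. The 18 DNA synthesis genes made up 126 to 145 CPM of this in sham and 143 to 300 CPM after injury, and the 24 mitotic genes 24.0 to 28.7 and 46.5 to 187 CPM. Thus the lowest injured sum of the mitotic genes was above the highest sham sum, whereas the sums of the synthesis genes met at TBI + VH 2.

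**Figure D4:**
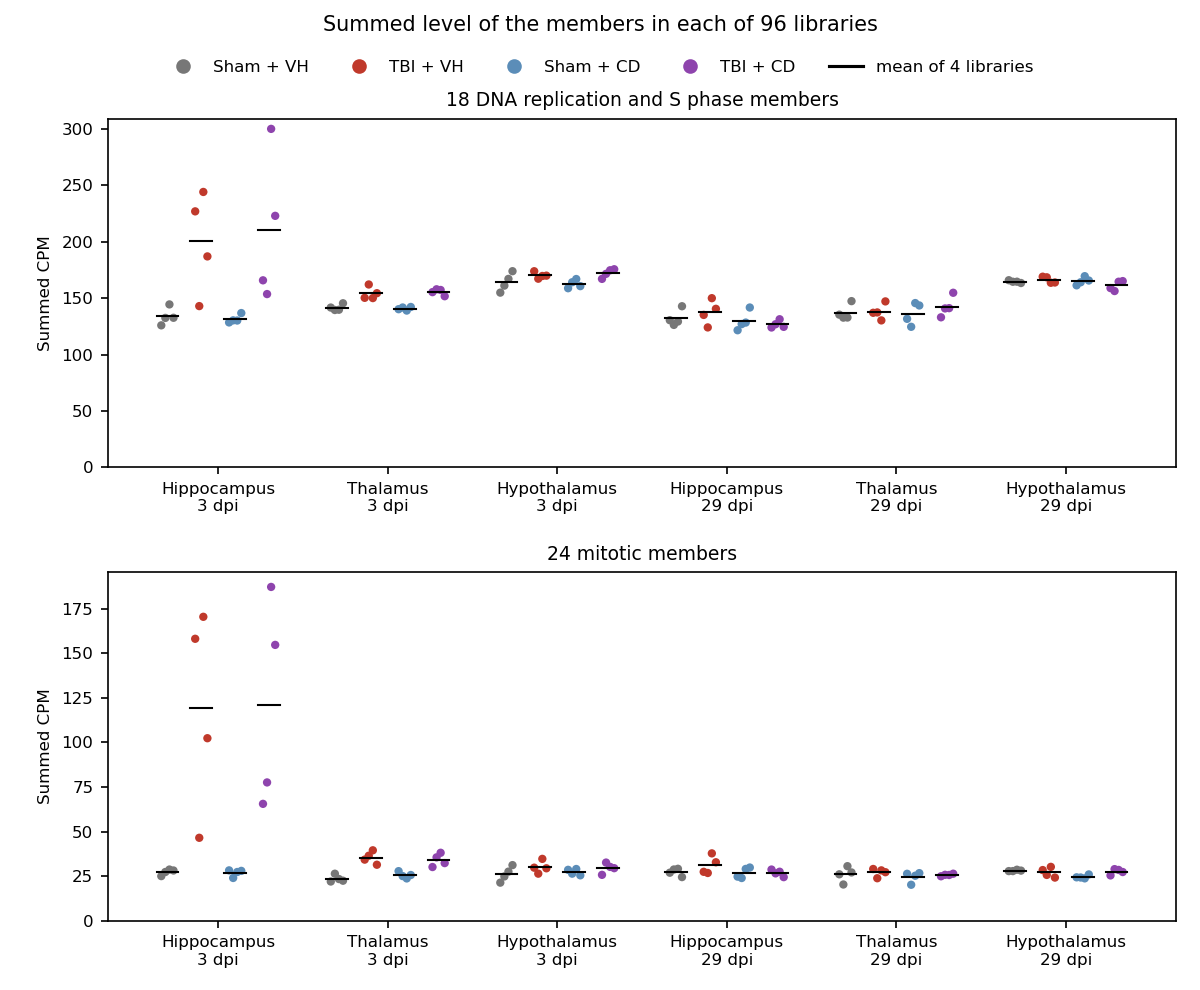
Summed CPM of the 18 DNA synthesis genes and of the 24 mitotic genes in each of the 96 libraries, by region, time and group, with a point for each library. The injured hippocampus at 3 dpi reaches 300 CPM for the DNA synthesis genes and 187 CPM for the mitotic genes, against at most 145 and 28.7 CPM in its sham libraries.

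Markers of several cell types moved in the same libraries. The 10 microglial genes were all called higher and summed to 323 to 365 CPM in sham, 1104, 705, 1106 and 875 CPM in TBI + VH and 867, 832, 1200 and 1157 CPM in TBI + CD. Genes of infiltrating monocytes and macrophages (5 called of 6 tested, of 8 listed) summed to 5.75 to 11.998 CPM in sham and to 153, 38.8, 148 and 111 CPM in TBI + VH and 77.9, 66.6, 159 and 148 CPM in TBI + CD. TBI + VH 2, the library with the lowest levels of most cell cycle genes, was also the lowest on both lists, and TBI + CD 3 the highest on both. The 6 astrocyte genes were all called, at 1364 to 1738 CPM in sham and 4448 to 7162 CPM after injury, and 3 of 5 genes of oligodendrocyte precursors were called, at 176 to 216 and 293 to 430 CPM. On the astrocyte and precursor lists too, the lowest injured sum was in a TBI + VH library and the highest in a TBI + CD library. Of 6 genes of neural progenitors and newborn neurons 0 were called higher and 1 lower, with sums of 64.6 to 83.3 CPM in sham and 59.5 to 83.5 CPM after injury, and the 7 lymphocyte genes summed to at most 1.21 CPM, with 1 of them listed at 0 in all 8 sham libraries. By edgeR 1 of 5 ependymal genes was called higher, 1 of 10 choroid plexus and 1 of 5 hippocampal neuron genes lower, and 0 of 5 endothelial and 0 of 6 pericyte and fibroblast genes either way. These calls are from all 16 libraries. Without the 4 choroid-rich ones the counts for microglia, monocytes and macrophages, astrocytes and oligodendrocyte precursors were again 10, 5, 6 and 3 higher, whereas 1 ependymal gene was lower and 0 higher and 1 gene of neural progenitors and newborn neurons was higher and 0 lower. The part of these cell types in the result was not tested.

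Candesartan moved none of the 44 genes past the test in the hippocampus at 3 dpi. Between TBI + CD and TBI + VH edgeR called 0 (0% of all genes), DESeq2 called 0, and 0 genes had an unadjusted p under 0.05 (4.37% of all genes), with a median log2 difference of 0.05 and a range of -0.19 to 0.38. Mki67 differed by 0.13 (SE 0.39), Top2a by 0.04 (SE 0.40), Pcna by 0.08 (SE 0.11), Mcm2 by 0.22 (SE 0.23) and Cdk1 by 0.06 (SE 0.41). Sham + CD against Sham + VH gave 0 calls (1.5% of all genes) with a smallest FDR of 0.502, 0 by DESeq2 (which called 450 genes in all) and 0 genes at p under 0.05 (15% of all genes), and the test of whether the injury response differed between drug arms also gave 0 (0% of all genes) with a smallest FDR of 0.574, 0 by DESeq2 (which called 325 genes in all) and 0 genes at p under 0.05 (13.1% of all genes). Without the 4 choroid-rich libraries edgeR gave 0 calls and 0 genes at p under 0.05 in each of these comparisons, and with the choroid plexus covariate 0 calls and at most 1 gene at p under 0.05.

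A wider list of 103 cell cycle genes outside the 44 was examined for the same contrast, and 71 of its 101 tested genes were called higher and 0 lower in the hippocampus over both arms, with a median of 0.87 (13.3% of all genes were called higher). Of the 101, 14 passed the filter on low counts only through the injured groups, among them Cdkn3, Tk1, Kif2c, Dlgap5, Chaf1b, E2f8, E2f7 and Ncapg, which are named below, and of the other 87 genes 58 were called higher, with a median of 0.74. Without the 4 choroid-rich libraries 69 of 102 tested were called higher and 0 lower, with a median of 1.002 (12.4%). By single arm the count called higher fell from 60 to 1 in TBI + VH (2.95% of all genes) and from 66 to 10 in TBI + CD (4.57%) when those libraries were left out. The classes below are counted with all 16 libraries. Of the kinetochore and spindle genes 23 of 25 were called, led by Kif2c at 3.35, Dlgap5 at 3.34, Iqgap3 at 3.28 and Ckap2 at 3.20. Of the mitotic regulators 11 of 15 were called, led by Cdkn3 at 3.71, the kinase Pbk at 3.60, Gtse1 at 2.02 and Foxm1, a transcription factor of G2 and M genes, at 2.02. Condensin and chromosome genes were called in 5 of 8 cases (Ncapg 2.62, Ncaph 1.84, Hmgb2 1.69). Upstream of S phase, 9 of 12 origin licensing genes (Cdt1 1.47, Mcm10 1.43, Dbf4 1.27), 13 of 20 further S-phase enzymes (thymidine kinase Tk1 3.94 and the chromatin assembly subunit Chaf1b 3.08), 4 of 8 E2F and pocket protein genes (E2f8 3.00, Rbl1 1.33, E2f7 1.32, E2f2 1.01) and 4 of 7 G1 cyclins and CDKs (Cdk2 0.95, Ccnd1 0.41) were called. Ccnd2, a D-type cyclin, had a log2 fold change of -0.19 and was not called. Of 6 CDK inhibitors 2 rose: Cdkn1a (p21), which halts the cycle, by 0.87 (SE 0.13, FDR 4.71e-05), from 5.59 to 10.3 CPM, and Cdkn2c by 1.75.

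In the thalamus, which lies below the hippocampus and farther from the impact, the response at 3 dpi was smaller and narrower. Ccnb1, Bub1 and Ttk fell below the filter on low counts, and of the 41 genes tested 13 were called higher over both arms and 0 lower, where 0.907% of the 16762 genes tested were called higher and 0% lower. Cdk1, Melk, Aurkb, Nusap1 and Ube2c passed that filter only through the injured groups, and of the other 36 genes 9 were called. The median of the 41 was 0.40 (-0.00 over all genes), 40 of 41 were above 0, and 8 had no overlap between injured and sham libraries (0.489% of all genes). All 13 were also called in the hippocampus.

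Mki67 in the thalamus stood at 0.287, 0.761, 0.881 and 0.670 CPM in Sham + VH, 0.975, 0.422, 0.623 and 0.688 CPM in Sham + CD, 3.61, 3.11, 3.99 and 1.69 CPM in TBI + VH and 3.22, 2.58, 3.06 and 2.69 CPM in TBI + CD. Top2a stood at 0.614, 0.761, 0.264 and 0.276 CPM in Sham + VH, 0.706, 0.296, 0.457 and 0.367 CPM in Sham + CD, 2.39, 3.79, 3.25 and 1.94 CPM in TBI + VH and 1.87, 3.11, 3.28 and 1.76 CPM in TBI + CD. Neither gene overlapped between injured and sham libraries. Mki67 rose by 2.16 (SE 0.22, FDR 4.89e-05) and Top2a by 2.48 (SE 0.25, FDR 4.89e-05). Uhrf1 had 0.819, 1.14, 1.01 and 0.591 CPM in Sham + VH, 0.874, 0.549, 0.9554 and 0.275 CPM in Sham + CD, 1.502, 1.36, 1.66 and 1.10 CPM in TBI + VH and 1.52, 2.04, 1.55 and 1.94 CPM in TBI + CD. Its groups overlapped, because TBI + VH 4 fell below Sham + VH 2, and its log2 fold change was 1.02 (SE 0.20, FDR 0.0176).

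Among the mitotic genes of the thalamus 9 of 21 were called, with a median of 0.52. They included Ube2c at 2.03 (SE 0.33, FDR 0.00327), Aurkb at 1.83 (SE 0.29, FDR 0.00270), Melk at 1.42 (SE 0.27, FDR 0.0110), Cenpf at 1.08 (SE 0.19, FDR 0.00709), Prc1 at 0.91 (SE 0.15, FDR 0.00531), Aurka at 0.64 (SE 0.12, FDR 0.0122), Ccna2 at 0.46 (SE 0.11, FDR 0.0460) and Tpx2 at 0.40 (SE 0.09, FDR 0.0491). Cdk1 had 0.287, 0.190, 0.308 and 0.237 CPM in Sham + VH, 0.134, 0.253, 0.125 and 0.321 CPM in Sham + CD, 0.704, 0.957, 0.812 and 0.169 CPM in TBI + VH and 0.879, 0.859, 0.647 and 0.602 CPM in TBI + CD. All injured libraries but TBI + VH 4 were above the sham libraries, and Cdk1 rose by 1.60 (SE 0.30, FDR 0.0112). Of the called mitotic genes Ube2c, Aurkb, Melk and Cdk1 passed the filter on low counts only through the injured groups. Nusap1, which was not called, did too. The called genes that reach that filter in sham tissue were Cenpf, Prc1, Aurka, Ccna2 and Tpx2.

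Of the 18 DNA synthesis genes only Uhrf1 and Mcm5 were called in the thalamus, and the median was 0.15. Mcm5 had 3.07, 3.42, 2.95 and 3.63 CPM in Sham + VH, 3.77, 4.01, 3.86 and 3.39 CPM in Sham + CD, 4.93, 5.35, 4.61 and 4.47 CPM in TBI + VH and 5.15, 4.19, 6.52 and 5.09 CPM in TBI + CD, with every injured library above the sham libraries (log2 fold change 0.52, SE 0.09, FDR 0.00646). Pcna stood at 16.9, 16.4, 16.5 and 15.8 CPM in Sham + VH, 17.3, 17.99, 18.2 and 17.7 CPM in Sham + CD, 17.2, 19.0, 15.2 and 15.6 CPM in TBI + VH and 17.3, 18.5, 19.4 and 15.1 CPM in TBI + CD. These values were interleaved, with a log2 difference of 0.01 (SE 0.06). Mcm2, at 3.97, 4.87, 5.28 and 4.22 CPM in Sham + VH, 4.74, 4.56, 4.53 and 5.18 CPM in Sham + CD, 4.37, 5.54, 5.06 and 4.64 CPM in TBI + VH and 5.27, 5.21, 5.78 and 6.34 CPM in TBI + CD, differed by 0.18 (SE 0.08, FDR 0.748). Mcm6 had 0.35 (FDR 0.0787). Of the wider list 6 of 93 tested genes were called higher in the thalamus over both arms (0.907% of all genes). Of these Pbk at 2.66, Kif2c at 1.76, Kif18b at 1.62 and Spc25 at 1.39 passed the filter on low counts only through the injured groups, and of the 85 genes that reach it in sham tissue 2 were called, Iqgap3 at 1.36 and Foxm1 at 0.72.

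Summed over the genes, the 8 sham thalamic libraries held 164 to 170 CPM and the 8 injured ones 189 to 206 CPM, without overlap. The DNA synthesis genes summed to 139 to 146 and 150 to 162 CPM and the mitotic genes to 22.0 to 27.8 and 30.1 to 39.5 CPM. All 10 microglial genes were called in the thalamus too, at 269 to 321 CPM in sham and 373 to 497 CPM after injury. Monocyte and macrophage genes had 2 of 3 tested called, at 5.99 to 9.22 and 8.52 to 15.6 CPM, astrocyte genes 1 of 6, at 1232 to 1381 and 1448 to 1853 CPM, and genes of oligodendrocyte precursors 0 of 5 (edgeR), at 216 to 237 and 217 to 226 CPM. Their part in the result was not tested.

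By single arm the thalamic calls were few. In TBI + VH 4 genes were called (0.298% of all genes tested): Mki67 at 2.25 (FDR 0.00362), Top2a at 2.55 (FDR 0.00362), Aurkb at 1.91 (FDR 0.0449) and Prc1 at 1.08 (FDR 0.0450). In TBI + CD 4 were called (0.418%): Mki67 at 2.14 (FDR 0.00341), Top2a at 2.37 (FDR 0.00423), Mcm5 at 0.68 (FDR 0.0254) and Ube2c at 2.38 (FDR 0.0351). Of the 36 genes that reach the filter in sham tissue, which leaves out Aurkb and Ube2c, 3 were called in each arm. With only the 8 libraries compared in the fit TBI + VH had 0 calls (Mki67 at FDR 0.103 and Top2a at 0.0668; 17 genes at an unadjusted p under 0.05), and TBI + CD had 2, Mki67 and Top2a. Groups of 4 did not overlap for 13 and 18 genes (1.55% and 2.64% of all genes). Without TBI + VH 4 the first count was 7 and the second 6. The count in TBI + VH was 2 without Sham + VH 1, 2 or 4, TBI + VH 1, 2 or 3, Sham + CD 1, 3 or 4 or TBI + CD 1 or 2, and the count in TBI + CD was 2 without Sham + VH 1, 3 or 4 or without TBI + CD 1 or 3. Candesartan gave 0 edgeR calls in the thalamus, and 0 by DESeq2, in sham mice, in injured mice and for the interaction (0% of all genes in each by edgeR, and 9, 0 and 0 genes in all by DESeq2). At an unadjusted p under 0.05 stood 2 genes in sham mice (Cdca8 and Kif23; 6.87% of all genes), 2 in injured mice (Ccne2 and Kif20a; 2.05%) and 3 for the interaction (Mcm7, Cdca8 and Kif20a; 2.3%). In injured thalamus the drug arms differed by -0.10 (SE 0.27) for Mki67 and by -0.18 (SE 0.30) for Top2a.

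In the hypothalamus at 3 dpi Mki67 was the only gene called over both arms, among 38 tested (0.0177% of 16946 genes were called higher). It stood at 0.635, 0.718, 0.606 and 0.816 CPM in Sham + VH, 0.777, 0.610, 0.377 and 0.615 CPM in Sham + CD, 2.16, 1.40, 1.97 and 1.45 CPM in TBI + VH and 1.82, 2.84, 1.69 and 1.31 CPM in TBI + CD. Every injured library was above every sham library, and the log2 fold change was 1.51 (SE 0.18, FDR 0.00691). Top2a, at 0.784, 0.642, 0.797 and 0.922 CPM in Sham + VH, 0.863, 0.325, 0.753 and 0.760 CPM in Sham + CD, 1.43, 1.22, 1.67 and 1.85 CPM in TBI + VH and 1.14, 2.75, 1.31 and 1.79 CPM in TBI + CD, likewise did not overlap, but its 1.16 (SE 0.21, FDR 0.0967) missed the threshold in edgeR and passed in DESeq2. These were the 2 genes without overlap, a state found in 0.0767% of all genes. Pcna differed by 0.03 and Mcm2 by 0.18, and the median over the 38 genes was 0.15. Ccnb1, Cdk1, Bub1, Melk, Aurkb and Ube2c fell below the filter on low counts.

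Neither arm alone reached a call by edgeR in the hypothalamus (0% of all genes in each). TBI + VH had 3 genes at an unadjusted p under 0.05 (3.4% of all genes) and 0 by DESeq2, and TBI + CD had 4 (3.85%) and 1 by DESeq2, which was Mki67. Candesartan gave 0 calls by edgeR and 0 by DESeq2 in sham and in injured mice (0% of all genes), with 1 gene at p under 0.05 in the first (Bub1b; 2.13%) and 0 in the second (2.08%). Microglial genes had 0 of 10 called by edgeR there, at 265 to 306 CPM in sham and 292 to 335 CPM after injury. The 6 astrocyte genes, of which 0 were called, summed to 1566 to 1744 CPM in sham and 1767 to 1985 CPM after injury, without overlap. The 5 ependymal genes, of which 0 were called, summed to 17.5 to 146 CPM (median 54.7) in sham and 20.4 to 145 CPM (median 134) after injury, and those of monocytes and macrophages (0 called of 6 tested) to 8.45 to 14.3 and 9.88 to 22.4 CPM. The part of these cell types in the Mki67 rise was not tested.

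The difference between regions was tested directly, on all 48 libraries at 3 dpi and with the regions taken as independent. The injury response was larger in the hippocampus than in the thalamus for 29 of the 44 genes (8.59% of 17788 genes tested were called in that direction), with a median difference in log2 fold change of 1.23 against -0.04 over all genes. The 29 were 18 of 24 mitotic genes, 10 of 18 DNA synthesis genes and Mki67. They were led by Rrm2, with a difference of 2.67 (SE 0.37, FDR 6.42e-07), Cdc20 at 2.49 (SE 0.31, FDR 7.03e-08), Prc1 at 2.29 (SE 0.37, FDR 1.09e-05) and Kif23 at 2.17 (SE 0.30, FDR 4.50e-07). The difference was 1.91 (SE 0.51, FDR 0.00638) for Cdk1, 1.21 (SE 0.40, FDR 0.0283) for Mki67, 0.63 (SE 0.18, FDR 0.00985) for Mcm2 and 0.38 (SE 0.09, FDR 0.00177) for Pcna. Top2a, at 0.88 (SE 0.44, FDR 0.170), was not called. With replicate number 3 left out of every group 14 of the genes were called. The next setting leaves out hippocampal libraries only, and choroid plexus genes reached 3460 CPM in sham thalamus and 76.6 CPM in injured thalamus. Without the 4 choroid-rich libraries 24 were called (7.77% of all genes), and Mki67 was not among them (1.28, SE 0.45, FDR 0.0504), nor was Pcna, at 0.30.

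Against the hypothalamus 36 genes had a larger response in the hippocampus (9.51% of all genes), with a median difference of 1.51, and all 29 genes of the thalamic contrast were among them. The other 7 were Top2a, Mcm5, Fen1, Aurka, Bub1b, Ttk and Cenpe. Ube2c led with 3.62 (SE 0.60, FDR 1.14e-05), followed by Cdk1 with 2.94 (SE 0.53, FDR 4.41e-05), Rrm2 with 2.93 (SE 0.37, FDR 6.59e-08) and Prc1 with 2.91 (SE 0.37, FDR 5.57e-08), and Mki67 differed by 1.86 (SE 0.41, FDR 7.06e-04). With the 4 choroid-rich libraries left out 31 genes were called (8.48%). Ccnb1, Cdk1, Bub1, Ttk, Melk, Aurkb, Nusap1 and Ube2c were below the filter on low counts, or passed it only through injured groups, in at least 1 of the 3 regions, and of the other 36 genes 30 were called here and 24 in the contrast with thalamus. These contrasts share the hippocampal libraries. Between thalamus and hypothalamus the responses differed for 0 genes by edgeR (0.0112% of all genes) and 0 by DESeq2 (16 genes in all), with 4 genes at an unadjusted p under 0.05 (3.57% of all genes).

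Uninjured regions were compared as well, and the share of the 44 genes called was near or below that of all genes, apart from those higher in hippocampus than in hypothalamus. In Sham + VH mice at 3 dpi 9 of the genes were higher in hippocampus than in thalamus and 3 lower, where 19.4% of all genes were called higher and 21.5% lower. CPM in this comparison were scaled over all 48 libraries at 3 dpi, so levels differ somewhat from those given for a region on its own. Higher in the hippocampus were Mki67 (1.78 against 0.657 CPM, log2 difference 1.43), Top2a (1.90), Cenpe (1.53), Mcm6 (19.3 against 6.95 CPM, 1.47), Cenpf (1.36), Cdk1 (1.29), Mcm5 (0.92), Plk1 (0.77) and Pola1 (0.38), and lower were Lig1 (9.58 against 21.9 CPM, -1.19), Ccne2 (-0.79) and Rrm1 (-0.37). Against the hypothalamus 14 genes were higher and 9 lower (23.2% and 23.5% of all genes), with Cenpe at 2.31, Aurkb at 2.31, Mki67 at 1.45 and Top2a at 1.31 among the first and Lig1 at -1.71, Birc5 at -1.38 and Kif23 at -0.95 among the second. Between thalamus and hypothalamus 3 were higher (14.7%) and 6 lower (13.9%), with Cdca8 at 1.59 and Cenpf at -1.31 farthest apart, and 4 of these 9 calls were made without replicate number 3. Lig1, at 9.58, 21.9 and 31.4 CPM in hippocampus, thalamus and hypothalamus, was ordered opposite to Mcm5, at 6.25, 3.30 and 2.74 CPM. Of the hippocampal Sham + VH libraries 3 of 4 were those rich in choroid plexus RNA. Without the 4 choroid-rich libraries, which leaves 1 hippocampal Sham + VH library, 6 genes were higher and 1 lower than in thalamus (16.1% and 15.8% of all genes), and 11 were higher and 4 lower than in hypothalamus (19.2% and 18%). Mki67 was then not called against the thalamus (1.53, SE 0.62, FDR 0.0505), and Lig1 was still called lower in both (-1.34 and -1.87).

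At 29 dpi none of the 44 genes was called by edgeR in any of the 3 regions. Over both arms the counts were 0 of 41 tested in the hippocampus (1.62% of all genes were called), 0 of 37 tested in the thalamus (0%) and 0 of 37 tested in the hypothalamus (0.00583%), DESeq2 gave 0 in each (334, 17 and 4 genes in all), and the median log2 fold changes were 0.04, 0.05 and 0.01. An unadjusted p under 0.05 was found for 1 gene in the hippocampus (Mcm4, 0.16; 11% of all genes), 1 in the thalamus (Mcm6, 0.20; 6.75%) and 2 in the hypothalamus (Cdca8, -0.51, and Cenpf, -0.36; 2.94%). Mki67 in the hippocampus stood at 2.52, 2.37, 2.77 and 2.60 CPM in Sham + VH, 1.98, 2.15, 1.97 and 2.34 CPM in Sham + CD, 2.52, 1.57, 4.25 and 2.35 CPM in TBI + VH and 2.62, 1.58, 2.41 and 1.29 CPM in TBI + CD. Top2a stood at 1.61, 1.998, 2.30 and 1.54 CPM in Sham + VH, 2.29, 1.76, 1.52 and 1.92 CPM in Sham + CD, 1.72, 1.14, 4.38 and 1.67 CPM in TBI + VH and 2.14, 1.03, 2.44 and 1.98 CPM in TBI + CD. The groups were interleaved for both genes, and in each the highest of all 16 libraries was TBI + VH 3. That library also had the highest sum of the mitotic genes in its group, at 37.8 CPM against 27.4, 26.8 and 32.8 CPM. The 44 genes summed to 151 to 176 CPM in sham and 152 to 197 CPM in injured hippocampus, where microglial genes were at 306 to 363 and 348 to 445 CPM and monocyte and macrophage genes at 6.29 to 12.2 and 24.1 to 67.5 CPM.

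The single arms and the drug contrasts at 29 dpi gave 0 calls by edgeR and 0 by DESeq2 as well, where DESeq2 called 0 to 140 genes in all. Of all genes, edgeR called 0.529% in TBI + VH and 0.119% in TBI + CD against Sham + VH in the hippocampus, 0.00583% in TBI + VH in the hypothalamus and 0% in the other contrasts. Genes at an unadjusted p under 0.05 numbered 2 in the TBI + VH hippocampus (Aurka and Nusap1; 7.98% of all genes), 1 in TBI + CD (Rfc3; 7.4%), 1 in Sham + CD (Ccnb2; 4.81%) and 3 for TBI + CD against TBI + VH (Rfc3, Tyms and Nusap1; 5.31%). In the thalamus they numbered 0 (2.47%), 0 (4.81%), 2 (Mcm6 and Ect2; 3.18%) and 1 (Mcm6; 2.24%) in the same order. In the hypothalamus they numbered 2 (Cdca8 and Cenpf; 2.79%), 2 (Cdca8 and Cenpf; 3.86%), 3 (Pcna, Cenpf and Kif11; 13.2%) and 3 (Mcm2, Rrm1 and Kif20a; 3.06%). No gene was below that p in all 3 regions.

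The change of the injury response between 3 and 29 dpi was tested in each of the hippocampus and thalamus. In the hippocampus it was larger at 3 dpi for 36 of the 44 genes (7.92% of all genes tested), with a median difference of 1.71, and these were 23 mitotic genes, 11 DNA synthesis genes and both markers. The difference was 3.45 for Mki67 (SE 0.41, FDR 4.22e-07), 3.58 for Cdk1 (SE 0.52, FDR 1.02e-05), 3.27 for Top2a (SE 0.45, FDR 4.91e-06), 0.75 for Mcm2 (SE 0.21, FDR 0.0142) and 0.43 for Pcna (SE 0.11, FDR 0.0109). Mcm4, Mcm6, Mcm7, Pola1, Prim1, Ccne2, Hells and Bub1b did not pass, with differences of 0.16 to 0.54. Of the 39 genes that reach the filter on low counts in sham tissue 31 passed. Leaving out the 4 choroid-rich libraries, 31 of the 44 passed (6.15% of all genes), with a median of 1.77, and Mcm2 (0.75, FDR 0.0566) and Pcna (0.34, FDR 0.1196) did not. That setting kept every 29 dpi library, where the choroid plexus genes summed to 67.5 to 7485 CPM in sham and 46.1 to 3617 CPM in injured hippocampus. In the thalamus 2 of 42 genes passed (0.0175% of all genes), Mki67 with 2.196 (SE 0.28, FDR 3.04e-04) and Top2a with 2.01 (SE 0.35, FDR 0.0222), and 0 passed without replicate number 3. Cohort and route of treatment go with the time point and cannot be told apart from it.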

How the data were processed

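RNA of 96 libraries was sequenced by the authors as stranded, polyadenylated, paired-end libraries, aligned to mm10 with MapSplice and counted on genes with HTSeq 0.9.1, per the labels and the study's methods. The authors deposited whole-number counts without normalization, in tables of 32594 genes. The annotation, the strand setting and the treatment of multi-mapped reads are not given in the sources used here, so genes with near-identical copies, such as Pcna and Ccnb1, are uncertain. Columns were assigned to groups by their labels, and 0 columns were left over.

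The 16 libraries of each region and time point were fitted together with edgeR 4.0.16 (R 4.3.3), after filterByExpr and TMM scaling, and tested by its quasi-likelihood F test, two-sided, with p-values adjusted across every gene tested (Benjamini-Hochberg). Called genes had an FDR below 0.05 and a log2 fold change past 0.32 in either direction. Standard errors (SE) were taken as the absolute log2 fold change over the root of F. The test was checked on counts simulated for TBI + VH against Sham + VH in the hippocampus at 3 dpi. It found 59.7% of true log2 fold changes of 0.5 in size, 73.1% of those of 1 and 83.3% of those of 2. There were 7 false calls. Injury over both drug arms is the mean of the TBI groups minus the mean of the sham groups. Regions at 3 dpi, and time points within a region, were compared as differences of these effects. No pair of libraries in a group was a duplicate (chi-square per degree of freedom 2.64 to 48.1 over 144 pairs). Depth was 6663629 to 38589791 counts per library.

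The 44 genes, the wider cell cycle list and the cell type marker lists were chosen with earlier results of these data known. Genes were named by a rule: each called gene where 5 or fewer were called, otherwise up to 3 per role with the largest change; Mki67, Top2a, Pcna, Mcm2 and Cdk1 always; genes of a role that did not pass where the role is described; and from the wider list Cdkn1a and up to 4 called genes per class. Other genes named, among them the rest of the called genes of a role and Ccnd2, were chosen after their values were seen. Exon lengths came from GENCODE vM21 and promoters from RefSeq (GRCm38.p6). Alternatives were DESeq2 1.42.0, RLE factors, no filter, FDR alone, the replicate number as a block, only the 8 libraries compared, a choroid plexus covariate in the hippocampus, and each library or replicate number left out. Leaving out the 4 choroid-rich libraries and testing injury within the candesartan arm alone, also both together, were added after seeing the data.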

Additional observations from a re-analysis of the deposited data

Results flagged for a closer look

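Of 192 groups of 4 libraries examined for Mki67, Top2a, Pcna, Mcm2, Cdk1 and the summed levels, 8 (4.17%) held a library far from the others, where chance gives about 1 in 20. In the hippocampus at 3 dpi Sham + VH 3 was high for Top2a (2.30 CPM against 1.4998 to 1.58) and for Pcna (20.7 CPM against 17.4 to 17.6), and Sham + VH 1 was low for Mcm2 (4.55 CPM against 5.99 to 6.26). In the hypothalamus at 3 dpi Sham + VH 1 was high for Pcna (16.3 CPM against 14.9 to 15.1), and TBI + CD 1 was low in the sum of all 44 genes (196 CPM against 208 to 210). In the hippocampus at 29 dpi TBI + VH 3 was high for Mcm2 (9.51 CPM against 5.66 to 5.95), Sham + CD 4 was high for Pcna (20.4 CPM against 16.3 to 16.5) and Sham + CD 1 was low for Mcm2 (4.58 CPM against 5.93 to 6.15). The Mcm2 value of Sham + CD 1 rests on 30 counts.

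The injury response itself differed between groups of libraries. By the test of the difference it was larger in the hippocampus than in the thalamus for 29 genes and than in the hypothalamus for 36, and larger at 3 than at 29 dpi for 36 genes in the hippocampus and 2 in the thalamus.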

How the results depend on the processing

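Of 796 counts recomputed under the alternatives, 759 stayed within 1.5 times the reported count, and of 4964 values of single genes 4508 kept direction and side of the threshold, 449 fell short of it, 7 newly passed it and 0 reversed. The 796 counts are not split here by whether the reported count was 0. Of the 40 comparisons 26 had 0 called genes, and 1 of these 26 gave a call under any alternative. In the hippocampus at 3 dpi the choroid plexus covariate gave 3 calls for TBI + VH and 18 for TBI + CD, and leaving out the 4 choroid-rich libraries gave 4 and 11, and for the sham hippocampus 7 against thalamus and 15 against hypothalamus. In the thalamus TBI + VH had 7 calls by DESeq2, 2 without a filter and 0 with only the 8 libraries compared, and TBI + CD had 2 with only those 8. Within the candesartan arm alone the thalamus had 2 calls and the hypothalamus 0. DESeq2 gave 1 call in the hypothalamus in TBI + CD and 2 over both arms. The causes were not tested, beyond fewer libraries in the settings that leave some out.

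Leaving out libraries in turn gave 26 to 37 calls (hippocampus, TBI + VH), 31 to 38 (TBI + CD) and 39 to 42 (both arms), 2 to 7, 2 to 6 and 11 to 14 in the thalamus, and 1 to 1 in the hypothalamus over both arms. Leaving out replicate numbers gave 14 to 31 and 25 to 35 for the hippocampal response against thalamus and hypothalamus, 9 to 12, 18 to 20 and 4 to 8 for the sham contrasts of hippocampus with thalamus, hippocampus with hypothalamus and thalamus with hypothalamus, and 28 to 38 and 0 to 2 for 3 against 29 dpi in hippocampus and thalamus.

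Same-numbered libraries deviated together only weakly (median correlations of 0.0068 to 0.13 over the 6 sets, 4 to 15 of 24 pairs over 0.1), and since not every pair passed 0.1 in any set the numbers were not taken to pair the samples. The strongest hint was in the thalamus at 3 dpi, from the data and not the design: a median of 0.129 against -0.026 for other numbers, with 10 of 16 libraries closest to their own number. With the replicate number as a block the counts were 34, 38 and 39 in the hippocampus and 4, 5 and 12 in the thalamus (TBI + VH, TBI + CD, both arms), and 1 in place of 2 for the thalamus at 3 against 29 dpi. Depth limits the lowest genes: at 3 dpi, 3 of the 44 had too few counts to be tested in the thalamus, and 6 in the hypothalamus.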
